A study of Mus musculus with 34 samples.

Results

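The growth hormone, STAT5 and IGF1 axis was followed in mouse liver through 10 genes chosen as its members: the receptor gene Ghr, the transcription factor genes Stat5a and Stat5b, the inhibitor genes Cish and Socs2, the repressor genes Bcl6 and Cux2, and the secreted products Igf1, Igfals and Igfbp3. A row was found for 9 of the 10 genes among the 14436 genes of the Bcl2 experiment and among the 13817 genes of the S100a8 experiment. Cux2 was not analysed here. The data are polyA RNA-seq of liver from 34 male mouse samples, on a high-fat diet (HFD, 60% of energy from fat) or chow (10%) from 8 weeks of age. In the Bcl2 experiment, with 3 months of feeding, HFD Bcl2TG (n = 5) was set against HFD WT (n = 5), and chow Bcl2TG (n = 3) against chow WT (n = 3). Bcl2TG mice carry a Cre-inducible Bcl2 transgene switched on by Adipoq-Cre, so overexpression is meant for adipocytes, and WT mice were littermates. In the S100a8 experiment, HFD S100a8f/fCx3cr1Cre (n = 4) was set against HFD S100a8f/f (n = 5), and chow S100a8f/fCx3cr1Cre (n = 5) against chow S100a8f/f (n = 4). All of these mice carry floxed S100a8 alleles, Cx3cr1-Cre drives the deletion in macrophages and other Cx3cr1-expressing cells, and the feeding time is given as 3 months in one place and 4 months in another.

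Growth hormone from the pituitary binds its receptor on hepatocytes, the kinase JAK2 phosphorylates STAT5A and STAT5B, and the phosphorylated dimers enter the nucleus and bind DNA. In hepatocytes STAT5B is the main form, and pulses of growth hormone in male rodents keep the male pattern of liver gene expression. Targets include Igf1, which encodes the main circulating growth factor, and Igfals, which encodes the acid-labile subunit that holds IGF1 and IGFBP3 in a stable serum complex. Cish and Socs2 are rapid targets whose proteins damp the receptor's signal. BCL6 and CUX2 repress STAT5 targets, BCL6 mainly in male liver. In rodent liver Igfbp3 RNA is found mostly in nonparenchymal cells rather than hepatocytes.

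STAT5 dimers recognize the palindrome TTCNNNGAA, so the promoter windows of the members were searched for these letters, and the stretches that hold them are shown for Cish, Bcl6 and Igfals, the members in which they were found. They were picked by the motif and not by the size of a difference between groups. The Igfbp3 window held no motif. Whether a motif goes with the size of a difference between groups was not tested. RefSeq windows (GRCm38.p6, 250 bases before to 50 after a transcript start) were found for 9 of the 10 members and none was found for Socs2. Among these 9 members, 3 held the motif, in 5 of 16 windows, and 8.3% of all 32851 mouse windows held it. The motif reads alike on both strands, and capitals mark it in each line.
Cish, chr9:107296655-107296682, plus strand, across the start at 107296659: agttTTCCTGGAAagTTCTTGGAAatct
Bcl6, chr16:23988952-23988980, minus strand, upstream start at 23988852: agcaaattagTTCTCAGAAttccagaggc
Bcl6, chr16:23981353-23981461, minus strand, downstream start at 23981283: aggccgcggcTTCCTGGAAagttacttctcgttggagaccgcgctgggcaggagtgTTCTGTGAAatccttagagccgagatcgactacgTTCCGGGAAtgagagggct
Igfals, chr17:24877598-24877626, plus strand, start at 24877844: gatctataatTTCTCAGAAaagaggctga
Igfals, chr17:24878163-24878191, plus strand, start at 24878231: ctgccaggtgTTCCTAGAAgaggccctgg
The Cish stretch holds 2 copies and the downstream Bcl6 stretch holds 3. Windows with at least 2 copies made up 0.457% of all windows, and windows with at least 3 made up 0.0335%. A match in this window is a description of the sequence and was not tested for binding.

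In GRCm38 (GENCODE M21), the receptor gene lies apart from the others, with Ghr (ENSMUSG00000055737) at chr15:3317760-3583492 on the minus strand. The STAT5 genes are neighbours on chromosome 11, with Stat5b (ENSMUSG00000020919) at chr11:100780731-100850724 on the minus strand and Stat5a (ENSMUSG00000004043) at chr11:100859351-100885169 on the plus strand. The feedback and repressor genes are Cish (ENSMUSG00000032578) at chr9:107296026-107302784 on the plus strand, Socs2 (ENSMUSG00000020027) at chr10:95385362-95417180 on the minus strand and Bcl6 (ENSMUSG00000022508) at chr16:23965052-23988852 on the minus strand. The products are Igf1 (ENSMUSG00000020053) at chr10:87858265-87937042 on the plus strand, Igfals (ENSMUSG00000046070) at chr17:24865997-24882010 on the plus strand and Igfbp3 (ENSMUSG00000020427) at chr11:7206086-7213923 on the minus strand.

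Library totals ran between 18628257 and 52395073 counts, and every member had at least 37 counts in every sample. Values below are CPM, the counts relative to each library's total after TMM scaling, and a gene is called changed at an adjusted p under 0.05 in edgeR's quasi-likelihood test over all genes of the table. The transgene is meant for adipocytes, so liver Bcl2 does not check the genotype labels, but sample 1 of HFD WT stood apart with 21.3 CPM of Bcl2, against 2.72 to 2.94 CPM in the other 4 HFD WT samples and 8.98 to 14.9 CPM in HFD Bcl2TG. For called members, results that use this sample are given with and without it. Other genes and the marker sums are given only with it. S100a8 itself was not analysed here in the S100a8 experiment, so the deletion was not checked. The hepatocyte markers fixed for the check were all 10 measured in both experiments, none of them at 0 in any sample. Clock genes separated diets in the Bcl2 experiment: Dbp had 34.6 to 106 CPM in HFD Bcl2TG and 24.9 to 34.7 CPM in HFD WT, against 2.17 to 13.1 CPM in chow Bcl2TG and 0.493 to 1.40 CPM in chow WT. In the S100a8 experiment Dbp had 69.4 to 163 CPM on HFD and 78.8 to 149 CPM on chow. There 4 of 15 clock genes were called for diet in S100a8f/f and 4 of 15 in S100a8f/fCx3cr1Cre. Of all genes, 27.5% and 28.9% were called in these comparisons. Between genotypes on HFD in the Bcl2 experiment, the summed clock genes ran from 579 to 815 CPM in Bcl2TG and 435 to 563 CPM in WT. There 1 of 16 clock genes was called in edgeR, and 8 had an unadjusted p under 0.05, beside 3131 of the 14436 genes. A shared time of collection is not given in the sources used here. Between genotypes on chow in the Bcl2 experiment, 7 of 16 clock genes had an unadjusted p under 0.05 in edgeR, and none was called. There 1068 of the 14436 genes had such a p. In the Bcl2 experiment diet and clock state therefore cannot be told apart, nor can genotype and clock state on either diet.

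Compared per kilobase of exon, the receptor and the circulating products were the most abundant members. In chow WT livers the mean levels were 75.0 CPM per kilobase for Ghr, 45.8 for Igf1, 32.5 for Igfals, 17.6 for Bcl6 and 14.1 for Stat5b. Below these came Igfbp3 with 5.83, Stat5a with 3.18, Socs2 with 1.08 and Cish with 0.307 CPM per kilobase, and no neighbours in this order overlapped between samples. In HFD WT livers the order was Ghr with 60.7, Igf1 with 32.0, Igfals with 19.8, Stat5b with 13.3, Igfbp3 with 11.1, Bcl6 with 5.14, Stat5a with 3.63, Socs2 with 1.07 and Cish with 0.590 CPM per kilobase. There, Igf1 overlapped with Igfals, Igfals with Stat5b, Stat5b with Igfbp3, Igfbp3 with Bcl6, Bcl6 with Stat5a, and Socs2 with Cish. Stat5b was above Stat5a per kilobase in every group, at 14.1 against 3.18 in chow WT.

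**Figure D1:**
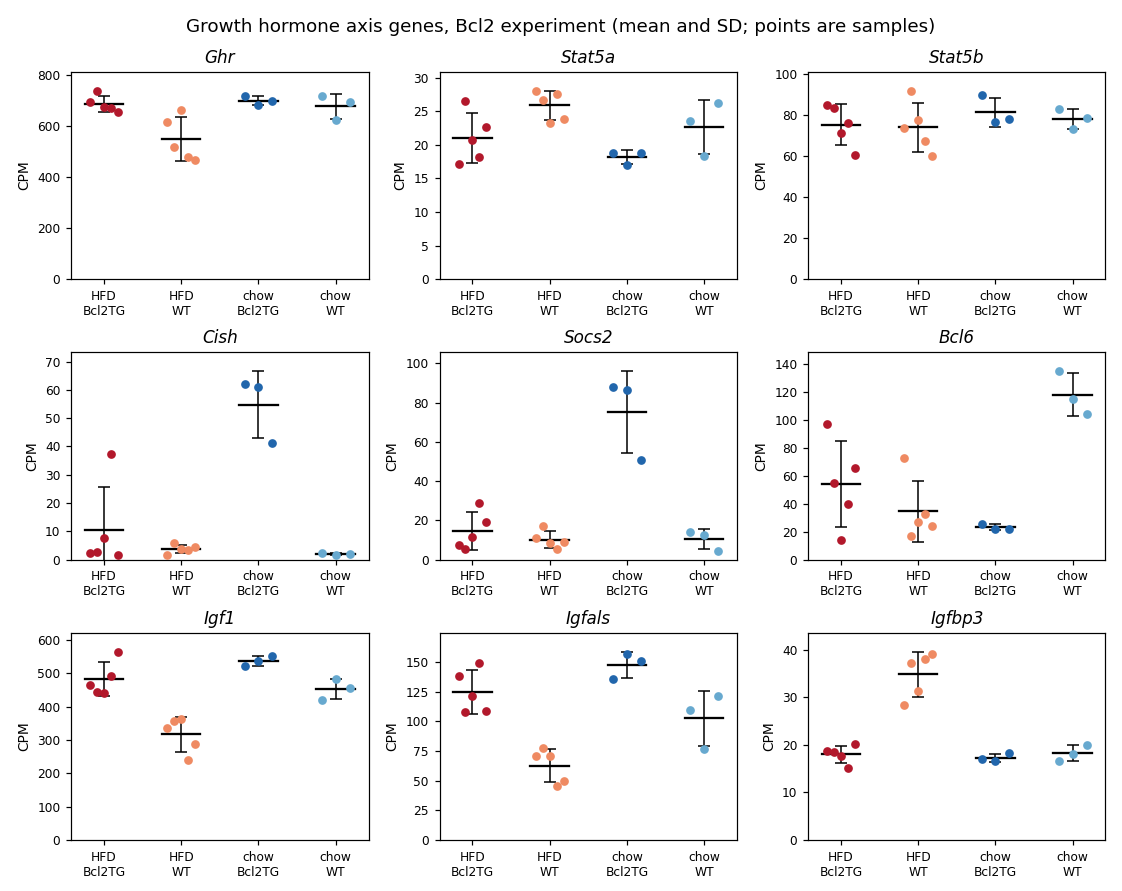
CPM of the 9 measured members in the Bcl2 experiment, by group on the horizontal axis. Points are samples, lines are means and bars are SD (cut at 0). HFD WT stands apart from the other groups for Igf1 and Igfbp3, where the lowest HFD Bcl2TG value of Igf1 was 442 CPM and the highest HFD WT value was 364 CPM, but for Igfals it overlaps with 1 chow WT sample, while chow Bcl2TG stands apart for Cish and Socs2 and chow WT for Bcl6.

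The first comparison asks what adipocyte Bcl2 overexpression does to the hepatic axis under HFD. Of the 9 members, Igf1 and Igfals rose and Igfbp3 fell in HFD Bcl2TG livers relative to HFD WT, and 6 did not pass the test. In all, 6.71% of the genes tested passed (2.42% higher and 4.29% lower). The members' median log2 fold change was 0.49, beside 0.01 for all genes.

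Igf1, the main endocrine product of the axis, had 467, 444, 442, 493 and 565 CPM in HFD Bcl2TG livers, against 337, 358, 364, 241 and 287 CPM in HFD WT livers. Every HFD Bcl2TG sample was above every HFD WT sample. Igf1 averaged 482 ± 50.9 CPM in HFD Bcl2TG and 317 ± 52.5 CPM in HFD WT (SD, 5 samples each), with a difference of 0.60 on the log2 scale (SE 0.12, adjusted p = 0.0070 in edgeR). Igfals, the acid-labile subunit gene, had 138, 108, 121, 149 and 109 CPM in HFD Bcl2TG livers, against 70.5, 77.6, 70.6, 45.3 and 50.1 CPM in HFD WT livers. These groups again did not overlap, and the log2 fold change was 0.99 (SE 0.16, adjusted p = 0.0025). Igfbp3, whose protein is the third partner of the serum complex, had 18.7, 18.4, 17.7, 15.2 and 20.1 CPM in HFD Bcl2TG livers, against 28.3, 37.3, 31.2, 38.0 and 39.2 CPM in HFD WT livers. All HFD Bcl2TG samples lay below all HFD WT samples, with a log2 fold change of -0.95 (SE 0.11, adjusted p = 0.000437). Without sample 1 of HFD WT, Igf1 gave 0.61 (adjusted p = 0.0112), Igfals 1.02 (0.00387) and Igfbp3 -1.03 (0.000187). With the mean or the first principal component of the clock genes as a covariate, these 3 genes stayed called. Of all genes, 448 and 554 passed with these covariates, against 968 without. For genes other than the members, fits with a clock covariate are not given here. The genes of the ternary complex did not move together in RNA: Igf1 and Igfals were higher and Igfbp3 was lower.

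None of the receptor, STAT5, feedback and repressor members passed the test on HFD. Ghr had 693, 739, 676, 670 and 654 CPM in HFD Bcl2TG livers, against 618, 519, 664, 479 and 466 CPM in HFD WT livers, and the groups overlapped at 1 HFD WT sample. The log2 fold change of 0.32 (SE 0.11) did not pass in edgeR (adjusted p = 0.0894) and passed in DESeq2 (0.0212) and limma-voom (0.0268), with a range of 0.0212 to 0.249 over the alternatives. Stat5b averaged 75.1 ± 10.0 CPM in HFD Bcl2TG and 73.9 ± 12 CPM in HFD WT livers, with a 95% interval of the log2 difference between -0.24 and 0.29. Stat5a averaged 21.1 ± 3.74 CPM in HFD Bcl2TG and 25.9 ± 2.19 CPM in HFD WT and did not pass (log2 fold change -0.30, adjusted p = 0.179). Cish had 2.23, 2.78, 7.71, 37.4 and 1.75 CPM in HFD Bcl2TG livers, against 1.53, 5.76, 3.80, 3.45 and 4.39 CPM in HFD WT livers. The mean difference in Cish came from sample 5 of HFD Bcl2TG: its log2 fold change was 1.44 (adjusted p = 0.216) and was -0.03 without that sample. Socs2 and Bcl6 overlapped widely between HFD Bcl2TG and HFD WT (adjusted p = 0.536 and 0.370).

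Other genes of the pathway changed in few cases. Of 14 receptor-proximal genes only Prlr, the gene of the related prolactin receptor, was called: it had 182, 125, 148, 144 and 159 CPM in HFD Bcl2TG, against 100, 111, 89.4, 93.3 and 73.6 CPM in HFD WT (log2 fold change 0.70, adjusted p = 0.0116). The 12 other measured genes of the IGF system included 2 that rose and none that fell. Igfbp2, which encodes an insulin- and fasting-responsive binding protein, averaged 533 ± 214 CPM in HFD Bcl2TG and 160 ± 102 CPM in HFD WT (log2 fold change 1.73, adjusted p = 0.0166), with overlapping groups. Irs2, an adaptor of the insulin and IGF1 receptors, averaged 16.5 ± 1.2 CPM and 11.3 ± 1.65 CPM in those groups (0.54, adjusted p = 0.0499). Of 15 male-biased genes that depend on pulsatile growth hormone, 4 rose and none fell. Hsd3b5, a male-specific steroid dehydrogenase, averaged 96.7 ± 52.1 CPM in HFD Bcl2TG and 2.76 ± 4.22 CPM in HFD WT (log2 fold change 5.06, adjusted p = 0.00178). Slco1a1, a bile acid and steroid transporter gene, averaged 297 ± 82.6 CPM and 65.5 ± 56.9 CPM (2.18, adjusted p = 0.0338). Of 10 measured female-biased genes, only Ly6d was called, at 1.46 ± 1.18 CPM in HFD Bcl2TG and 25.2 ± 19.1 CPM in HFD WT (-4.16, adjusted p = 0.00178).

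Marker genes of other cell types moved in the same comparison. Of 10 hepatic stellate cell markers, 3 were lower and none higher, and their summed level ran from 365 to 484 CPM in HFD Bcl2TG, against 584 to 735 CPM in HFD WT. Of 10 sinusoidal endothelial markers, 1 was lower, with sums of 181 to 339 CPM in HFD Bcl2TG and 289 to 345 CPM in HFD WT. None of these markers was at 0 in any sample. Of 9 infiltrating myeloid markers, 4 were lower, with sums of 37.8 to 97.4 CPM in HFD Bcl2TG and 62.0 to 107 CPM in HFD WT. Of 4 measured adipocyte markers (Plin4, Cidec, Fabp4 and Car3), 3 were lower in HFD Bcl2TG, with a median log2 fold change of -1.42. Their sums were 3681 to 7011 CPM in HFD Bcl2TG and 3690 to 4772 CPM in HFD WT. Adipoq, Lep and Plin1 had no row in this experiment. The paper counts Cidec and Fabp4 among PPARγ target genes raised by HFD in liver, so this list does not stand for adipocytes alone. Of 10 hepatocyte markers, 3 were higher and 1 lower, with sums of 88354 to 130511 CPM in HFD Bcl2TG and 73038 to 107807 CPM in HFD WT. In bulk liver, fewer cells of a type and less RNA per cell cannot be told apart, and the part of cell composition in the lower Igfbp3 was not tested.

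The chow comparison asks whether the transgene alters the axis without HFD. The immediate STAT5 feedback genes were far apart between chow Bcl2TG and chow WT, in groups of 3, yet none of the 9 members passed in edgeR. At an unadjusted p under 0.05 there were 4, beside 1068 of the 14436 genes. DESeq2 called 2 members, beside 110 of all genes, and limma-voom called 3, beside 220. Of all genes, 0.152% passed in edgeR (0.104% higher and 0.0485% lower). The members' median log2 fold change was 0.06, beside -0.03 for all genes.

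Cish had 62.2, 61.1 and 41.2 CPM in chow Bcl2TG livers, against 2.43, 1.69 and 1.79 CPM in chow WT livers. The log2 fold change was 4.79 (SE 0.97, adjusted p = 0.0741), with a range of 0.000599 to 0.268 over the alternatives. Socs2, the other feedback inhibitor, had 87.9, 86.4 and 51.0 CPM in chow Bcl2TG livers, against 13.9, 12.6 and 4.41 CPM in chow WT livers (log2 fold change 2.86, SE 0.57, adjusted p = 0.0617, range 0.000552 to 0.225). For Bcl6 the order was the opposite. It had 25.7, 22.2 and 21.7 CPM in chow Bcl2TG livers, against 135, 115 and 104 CPM in chow WT livers (log2 fold change -2.35, SE 0.55, adjusted p = 0.116, range 0.0036 to 0.655). For Cish, Socs2 and Bcl6, no sample of either group entered the range of the other, in groups of 3. The share of all genes that separate groups in this way was not counted for any comparison. A lack of overlap is therefore only a description, here and elsewhere. The Cish and downstream Bcl6 stretches printed above are those with more than 1 copy of the STAT5 palindrome. Binding to them was not tested, Cish and Bcl6 differed in opposite directions, and no promoter window was found for Socs2.

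None of the secreted products passed on chow. Igf1 had 522, 537 and 553 CPM in chow Bcl2TG, against 421, 483 and 456 CPM in chow WT, without overlap (log2 fold change 0.25, adjusted p = 0.738). Igfals had 135, 157 and 151 CPM in chow Bcl2TG, against 110, 76.9 and 121 CPM in chow WT, also without overlap (0.52, 95% interval 0.07 to 0.98, adjusted p = 0.608). Igfbp3 averaged 17.3 ± 0.862 CPM in chow Bcl2TG and 18.3 ± 1.65 CPM in chow WT, with a 95% interval of the log2 difference between -0.39 and 0.23. Ghr averaged 699 ± 18.2 CPM and 679 ± 49.1 CPM in those groups, with an interval between -0.26 and 0.35.

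Of 13 transcription factors known to act beside STAT5 in liver, 4 were called on chow, all higher in chow Bcl2TG. Onecut1, a factor induced by growth hormone in rat liver, had 48.3, 49.0 and 48.9 CPM in chow Bcl2TG, against 6.96, 3.29 and 4.74 CPM in chow WT (log2 fold change 3.28, SE 0.58, adjusted p = 0.0273). Foxa2, a pioneer factor of hepatocytes, had 88.6, 90.4 and 83.9 CPM in chow Bcl2TG, against 36.9, 33.1 and 26.8 CPM in chow WT (1.44, SE 0.20, adjusted p = 0.00724). Its relative Foxa1 averaged 53.6 ± 6.15 CPM and 18.3 ± 4.51 CPM (1.55, adjusted p = 0.0115). Hhex, a homeobox factor of liver development, had 176, 187 and 164 CPM in chow Bcl2TG, against 48.6, 61.1 and 60.5 CPM in chow WT (1.63, adjusted p = 0.0142). In the IGF system only Irs2 was called, with 20.6, 18.5 and 15.6 CPM in chow Bcl2TG, against 32.1, 47.0 and 65.2 CPM in chow WT (-1.40, adjusted p = 0.00784). None of the 14 receptor-proximal, 15 male-biased, 10 female-biased or 16 clock genes was called in edgeR. At an unadjusted p under 0.05 there were 7 of the 16 clock genes, so genotype and clock state cannot be told apart here. Bmal1, a core clock activator gene among these 16, had 22.9 to 26.7 CPM in chow Bcl2TG, against 32.7 to 38.1 CPM in chow WT, without overlap (-0.51, adjusted p = 0.690). With the mean of the clock genes as a covariate, Socs2 gave a log2 fold change of 3.39 (adjusted p = 0.0140) and Cish 5.45 (0.0186). With the first principal component of the clock genes, chosen after seeing the data, neither passed, at 3.72 for Socs2 (adjusted p = 0.0622) and 5.73 for Cish (0.0835).

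**Figure D2:**
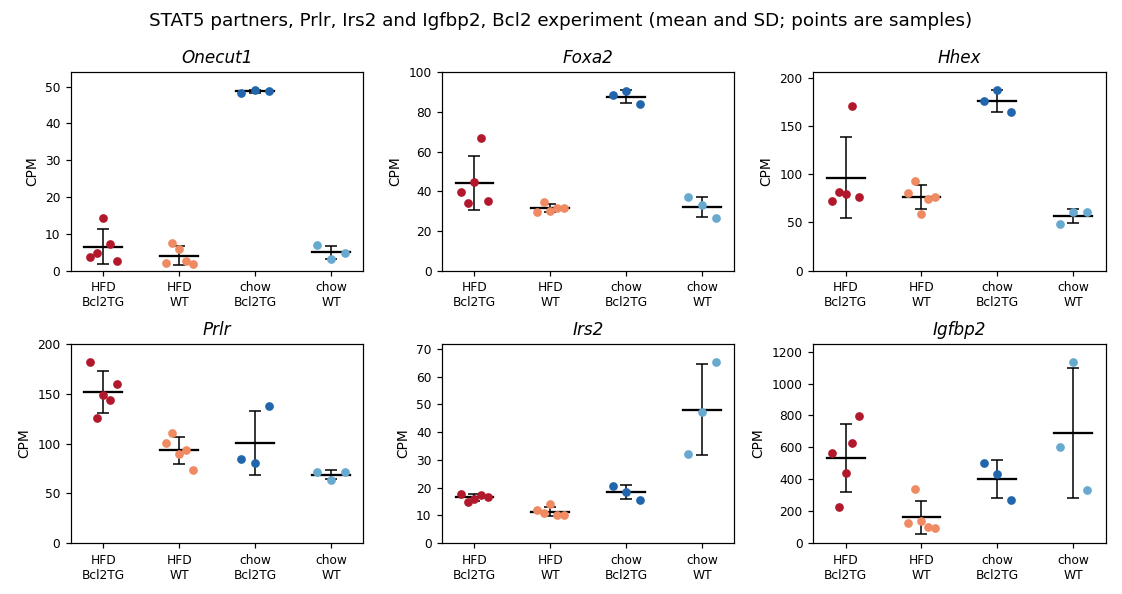
CPM of Onecut1, Foxa2, Hhex, Prlr, Irs2 and Igfbp2 in the Bcl2 experiment, by group. Points are samples, lines are means and bars are SD. The 3 chow Bcl2TG samples sit at 48.3 to 49.0 CPM for Onecut1, above all samples of the other groups, and chow WT is highest for Irs2.

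HFD against chow in WT livers asks what the diet does to the axis in mice without the transgene. Bcl6, Igf1 and Igfals fell, Igfbp3 rose, and 5 of the 9 members did not pass. Of all genes, 15.4% passed (8.4% higher and 6.98% lower), and the members' median log2 fold change was -0.08 beside -0.02 for all genes. The HFD WT samples are the same ones used in the HFD genotype comparison, so the 2 comparisons are not independent.

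Igfbp3 had the smallest p of the members. Its 28.3 to 39.2 CPM in HFD WT livers lay above the 16.7, 18.2 and 19.9 CPM in chow WT livers (log2 fold change 0.93, SE 0.13, adjusted p = 0.000228). Igf1 ran from 241 to 364 CPM in HFD WT, against 421 to 483 CPM in chow WT (-0.52, SE 0.14, adjusted p = 0.0165). Igfals ran from 45.3 to 77.6 CPM in HFD WT, against 76.9 to 121 CPM in chow WT, overlapping at 1 chow WT sample (-0.71, SE 0.18, adjusted p = 0.0152). The replicate numbers deviated together in this comparison, and with the number as a block Igfals did not pass (adjusted p = 0.0627), leaving 3 calls. Bcl6 had 72.3, 16.7, 26.7, 32.5 and 23.9 CPM in HFD WT, all below the 104 to 135 CPM in chow WT (-1.77, SE 0.45, adjusted p = 0.0143). Its highest HFD value belonged to sample 1, without which the log2 fold change was -2.23 (adjusted p = 0.0024). Without that sample, Igf1 gave -0.53 (adjusted p = 0.0236), Igfals -0.75 (0.0192) and Igfbp3 1.01 (0.000158) in edgeR. Ghr averaged 549 ± 87.4 CPM in HFD WT and 679 ± 49.1 CPM in chow WT and did not pass in edgeR (-0.31, adjusted p = 0.106), but passed in DESeq2 (0.0382) and limma-voom (0.0130), range 0.0130 to 0.969. Stat5a, Stat5b, Socs2 and Cish did not pass, with log2 fold changes between -0.08 and 0.92.

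Of 12 other IGF genes, 1 rose and 3 fell in HFD WT, and the list's median log2 fold change was -0.07 beside -0.02 for all genes. Irs2 averaged 11.3 ± 1.65 CPM in HFD WT and 48.1 ± 16.5 CPM in chow WT, without overlap (log2 fold change -2.08, adjusted p = 1.14e-05). Igfbp2 averaged 160 ± 102 CPM in HFD WT and 691 ± 407 CPM in chow WT (-2.11, adjusted p = 0.00465), and Igfbp1, a binding protein gene repressed by insulin, 63.9 ± 39.4 CPM and 164 ± 88.2 CPM (-1.36, adjusted p = 0.0450), both with overlapping groups. In Bcl2TG none of these 12 was called for diet in edgeR.

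Clock genes differed in the same comparison. Of 16, 4 were higher and 5 lower in HFD WT. Dbp, a clock output gene, averaged 30.4 ± 3.66 CPM in HFD WT and 0.850 ± 0.487 CPM in chow WT (log2 fold change 5.20, adjusted p = 5.48e-05), and Cry1, a clock repressor gene, averaged 9.53 ± 1.02 CPM and 25.7 ± 4.87 CPM (-1.43, adjusted p = 5.12e-05). With the mean of the clock genes in the fit, only Igfbp3 remained called among the 4, with adjusted p of 0.198 for Igf1, 0.0504 for Bcl6 and 0.0873 for Igfals. The first principal component of the clock genes as a covariate left none of the 4 called (adjusted p = 0.530 for Igfbp3). Of all genes, 595 passed with the clock mean and 3 with the component, against 2220 without a covariate. Marker lists moved too. Of 10 hepatocyte markers, 5 were lower and none higher, with sums of 73038 to 107807 CPM in HFD WT and 94844 to 121373 CPM in chow WT. Of 10 Kupffer cell markers, 7 were higher, with sums of 254 to 456 CPM in HFD WT and 148 to 181 CPM in chow WT, as were 5 of 9 infiltrating myeloid and 3 of 4 adipocyte markers. Of 10 stellate cell markers, 5 were higher, with sums of 584 to 735 CPM in HFD WT and 317 to 423 CPM in chow WT. Sinusoidal endothelial markers included 2 of 10 higher, with sums of 289 to 345 CPM and 241 to 269 CPM in those groups. None of the hepatocyte, Kupffer, stellate or endothelial markers was at 0 in any sample, and the part of cell composition in the Igf1, Igfals and Igfbp3 differences was not tested.

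In Bcl2TG livers the diet comparison called 1 of the 9 members, Socs2, where 2.58% of all genes passed (1.32% higher and 1.26% lower). The members' median log2 fold change was -0.11, beside 0.03 for all genes. Socs2 had 7.23, 5.30, 11.5, 29.0 and 19.0 CPM in HFD Bcl2TG, all below the 87.9, 86.4 and 51.0 CPM in chow Bcl2TG (log2 fold change -2.40, SE 0.46, adjusted p = 0.0105). The Socs2 call was lost without sample 1 (adjusted p = 0.0543) or sample 2 (0.0543) of chow Bcl2TG, and with the clock mean as a covariate (0.380). That covariate left 3 of all genes called, against 373 without it, so the loss is not particular to Socs2. Cish also had no overlap between HFD and chow Bcl2TG, but its log2 fold change of -2.43 did not pass (adjusted p = 0.0832). Without sample 5 of HFD Bcl2TG it was -3.90 (adjusted p = 0.00037), range 2.9e-05 to 0.860 over the alternatives. Onecut1 fell to 2.71 to 14.4 CPM in HFD Bcl2TG, against 48.3 to 49.0 CPM in chow Bcl2TG (-2.88, adjusted p = 0.00322), as did Foxa2 (-0.99, adjusted p = 0.0059) and Foxa1 (-0.92, adjusted p = 0.0282). For the products, the 95% intervals of the log2 difference in Bcl2TG were -0.45 to 0.14 for Igf1, -0.64 to 0.16 for Igfals and -0.21 to 0.34 for Igfbp3.

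Whether the diet difference itself depended on genotype was tested by the interaction of diet and genotype. Igfbp3 was the only member called, where 0.485% of all genes passed (0.229% with a positive and 0.256% with a negative interaction). Its diet difference was 0.87 lower on the log2 scale in Bcl2TG than in WT (log2 -0.87, SE 0.18, adjusted p = 0.0445). It rests on HFD WT, with 28.3 to 39.2 CPM, while HFD Bcl2TG (15.2 to 20.1 CPM), chow Bcl2TG (16.5 to 18.2 CPM) and chow WT (16.7 to 19.9 CPM) overlapped. This call held without sample 1 or 2 of HFD WT or sample 6 of HFD Bcl2TG and was lost without any other single sample, with adjusted p up to 0.154. With the replicate number as a block it was also lost (adjusted p = 0.0943). Bcl6 had an interaction of 3.0 (SE 0.67, adjusted p = 0.0550), which passed without sample 1 of HFD WT (3.44, adjusted p = 0.0211) and without sample 3 of HFD Bcl2TG (0.0219), and in DESeq2 (0.00539), with a range of 0.00539 to 0.183 over all its alternatives. Socs2 (-2.37, adjusted p = 0.129) and Cish (-3.35, adjusted p = 0.193) did not pass. Among the pathway lists, Irs2 (1.94, adjusted p = 0.00699) and the male-biased hydroxylase gene Cyp7b1 (1.92, adjusted p = 0.0447) were called.

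**Figure D3:**
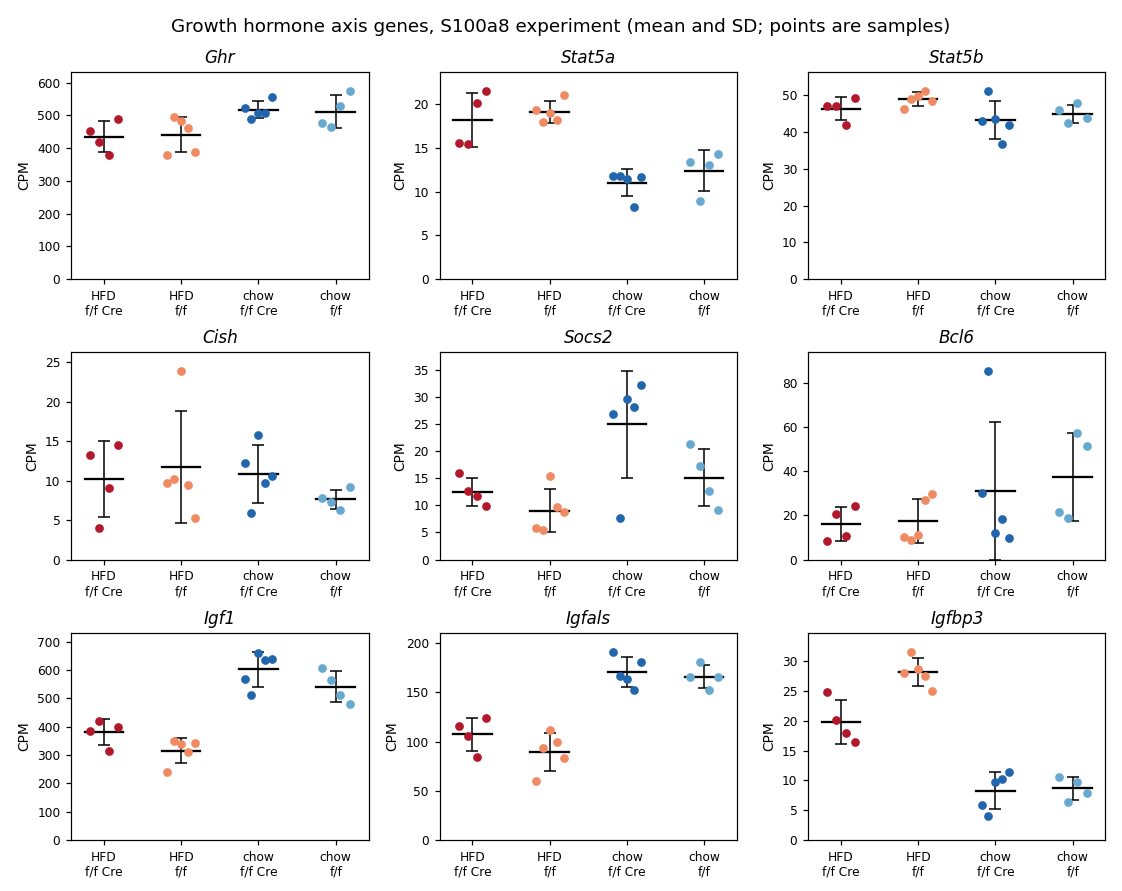
CPM of the 9 measured members in the S100a8 experiment, by group on the horizontal axis (f/f for S100a8f/f, f/f Cre for S100a8f/fCx3cr1Cre). Points are samples, lines are means and bars are SD (cut at 0). HFD samples lie below chow samples for Igf1 and Igfals and above them for Igfbp3 and Stat5a, in both genotypes.

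In the S100a8 experiment, deletion of S100a8 with Cx3cr1-Cre was compared with floxed controls on each diet. None of the 9 members was called between genotypes on HFD in edgeR, where 0.883% of all genes passed (0.854% higher and 0.0289% lower). At an unadjusted p under 0.05 there were 2, beside 1069 of the 13817 genes, and DESeq2 and limma-voom called 0. The members' median log2 fold change was -0.07, beside 0.00 for all genes. Igfbp3 had 24.9, 20.1, 18 and 16.4 CPM in HFD S100a8f/fCx3cr1Cre, against 28.0, 31.6, 28.7, 27.5 and 25.1 CPM in HFD S100a8f/f. The groups were adjacent without overlapping, and the log2 fold change was -0.50 (SE 0.22, adjusted p = 0.545). Igf1 had 386, 421, 315 and 400 CPM in HFD S100a8f/fCx3cr1Cre, against 239, 348, 339, 310 and 342 CPM in HFD S100a8f/f, with overlap (0.27, adjusted p = 0.587). Among the other IGF genes, Htra1, a secreted protease that cleaves IGF binding proteins, averaged 13.5 ± 1.36 CPM in HFD S100a8f/fCx3cr1Cre and 5.28 ± 0.568 CPM in HFD S100a8f/f (1.35, adjusted p = 6.38e-05), and Igfbp6 averaged 6.25 ± 0.331 CPM and 2.54 ± 0.607 CPM (1.30, adjusted p = 0.0293). Smooth muscle and mesothelial markers, of which 3 of 5 were higher and none was at 0, summed to 149 to 182 CPM in HFD S100a8f/fCx3cr1Cre and 15.2 to 39.7 CPM in HFD S100a8f/f. Of 6 adipocyte markers, 3 were higher and none lower, with Adipoq up by 2.67 on the log2 scale (adjusted p = 0.000116). Sums over that list ran from 3271 to 3756 CPM in HFD S100a8f/fCx3cr1Cre and 3138 to 4212 CPM in HFD S100a8f/f. Infiltrating myeloid markers, of which 1 of 7 was called higher, summed to 159 to 195 CPM in HFD S100a8f/fCx3cr1Cre and 63.1 to 118 CPM in HFD S100a8f/f. The part of these cells in the Htra1 and Igfbp6 differences was not tested. On chow, no member was called in edgeR, DESeq2 or limma-voom, and 0% of all genes passed in edgeR. At an unadjusted p under 0.05 there was 1 member, beside 775 of all genes. For Socs2, the member with the smallest p there, the chow means were 24.9 ± 9.80 CPM in S100a8f/fCx3cr1Cre and 15.1 ± 5.29 CPM in S100a8f/f (0.72, adjusted p = 0.886). No member passed the interaction test in edgeR, DESeq2 or limma-voom, and 0.13% of all genes passed in edgeR. None had an unadjusted p under 0.05 there, beside 879 of all genes.

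Diet was compared within each genotype of the S100a8 experiment. In S100a8f/f livers, Igfbp3 and Stat5a rose on HFD and Igf1 and Igfals fell, 4 of 9 members, where 27.5% of all genes passed (14.5% higher and 13% lower). In S100a8f/fCx3cr1Cre livers these 4 genes were called in the same directions and Socs2 fell, 5 of 9 members, where 28.9% passed (16.1% higher and 12.8% lower). The members' median log2 fold changes were -0.21 and -0.25 in these comparisons, beside -0.01 for all genes in both.

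Igfbp3 had 28.0, 31.6, 28.7, 27.5 and 25.1 CPM in HFD S100a8f/f, against 10.5, 6.38, 9.82 and 7.98 CPM in chow S100a8f/f (log2 fold change 1.70, SE 0.23, adjusted p = 2.94e-05). In S100a8f/fCx3cr1Cre it had 24.9, 20.1, 18 and 16.4 CPM on HFD, against 5.93, 4.05, 9.67, 10.2 and 11.5 CPM on chow (1.28, SE 0.22, adjusted p = 0.000284). Both contrasts separated all samples. Igf1 had 239, 348, 339, 310 and 342 CPM in HFD S100a8f/f, against 608, 566, 513 and 481 CPM in chow S100a8f/f (-0.78, SE 0.12, adjusted p = 0.000107). In S100a8f/fCx3cr1Cre it had 386, 421, 315 and 400 CPM on HFD, against 567, 512, 661, 634 and 640 CPM on chow (-0.66, SE 0.12, adjusted p = 0.000475). Igfals kept the order of Igf1, with 59.9 to 111 CPM in HFD S100a8f/f and 152 to 181 CPM in chow S100a8f/f (-0.89, adjusted p = 0.000134). In S100a8f/fCx3cr1Cre it ran from 84.6 to 124 CPM on HFD and 152 to 191 CPM on chow (-0.67, adjusted p = 0.00163).

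Stat5a, the less abundant STAT5 gene in these livers, had 19.3, 17.9, 18.9, 18.1 and 21.1 CPM in HFD S100a8f/f, against 13.3, 8.93, 13.0 and 14.3 CPM in chow S100a8f/f (0.62, SE 0.14, adjusted p = 0.00358). In S100a8f/fCx3cr1Cre it averaged 18.1 ± 3.10 CPM on HFD and 11 ± 1.54 CPM on chow (0.72, SE 0.14, adjusted p = 0.000822). Stat5b did not pass in either genotype, with 95% intervals of -0.06 to 0.31 in S100a8f/f and -0.09 to 0.29 in S100a8f/fCx3cr1Cre. Socs2 had 16, 12.6, 11.6 and 9.82 CPM in HFD S100a8f/fCx3cr1Cre, against 26.9, 7.72, 29.5, 28.1 and 32.2 CPM in chow S100a8f/fCx3cr1Cre (-0.99, SE 0.34, adjusted p = 0.0367). Chow sample 2 alone lay below the HFD samples. The Socs2 call was lost without any of 7 single samples (chow samples 1, 3, 4 and 5 and HFD samples 3, 4 and 5), with adjusted p of 0.0612 to 0.0980. Ghr averaged 435 ± 46.6 CPM in HFD and 517 ± 25.4 CPM in chow S100a8f/fCx3cr1Cre, without overlap (-0.25, adjusted p = 0.0749). It passed in DESeq2 (0.0383), in limma-voom (0.0356) and without HFD sample 5 (0.0481), with a range of 0.0356 to 0.408 over the alternatives. Bcl6 and Cish did not pass in either genotype.

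Ptpn6, the phosphatase SHP-1 gene, was the only receptor-proximal gene called for diet, of 13 measured: it averaged 24.4 ± 1.73 CPM in HFD and 18 ± 1.88 CPM in chow S100a8f/f (0.44, adjusted p = 0.0062) and 21.3 ± 1.31 CPM in HFD and 15.1 ± 2.33 CPM in chow S100a8f/fCx3cr1Cre (0.50, adjusted p = 0.00203). It is highly expressed in hematopoietic cells. In WT livers it was also the only one of 14 called (0.49, adjusted p = 0.0143). Of the 13 other IGF genes, 2 rose and 2 fell in S100a8f/f, and 4 rose and 2 fell in S100a8f/fCx3cr1Cre. Igfbp2 fell to 227 ± 81.1 CPM in HFD S100a8f/f, against 788 ± 191 CPM in chow S100a8f/f (-1.79, adjusted p = 4.5e-06), and in S100a8f/fCx3cr1Cre by 1.57 on the log2 scale (adjusted p = 2.2e-05). Igfbp7, an endothelial and stellate cell product, averaged 121 ± 27.2 CPM in HFD and 45.8 ± 13.0 CPM in chow S100a8f/f (1.40, adjusted p = 8.3e-05). Of the 13 STAT5 partner factors, 1 rose and 3 fell in S100a8f/f, and 3 fell in S100a8f/fCx3cr1Cre. Hhex averaged 82.0 ± 18 CPM in HFD and 128 ± 20.7 CPM in chow S100a8f/f (-0.64, adjusted p = 0.00482), and 89.8 ± 13 CPM in HFD and 153 ± 21.4 CPM in chow S100a8f/fCx3cr1Cre (-0.77, adjusted p = 0.00118). All 10 stellate cell markers were higher on HFD in both genotypes, with sums of 472 to 730 CPM in HFD and 120 to 262 CPM in chow S100a8f/f, and 543 to 639 CPM in HFD and 108 to 241 CPM in chow S100a8f/fCx3cr1Cre. Of 10 sinusoidal endothelial markers, 6 were higher in S100a8f/f and 7 in S100a8f/fCx3cr1Cre. Of 10 hepatocyte markers, 4 were lower and none higher in each genotype, with sums of 78020 to 87957 CPM in HFD and 74261 to 100653 CPM in chow S100a8f/f, and 78215 to 94803 CPM in HFD and 97135 to 110937 CPM in chow S100a8f/fCx3cr1Cre. None of these markers was at 0 in any sample. Kupffer cell markers were higher for 4 of 10 in S100a8f/f and 8 of 10 in S100a8f/fCx3cr1Cre, and infiltrating myeloid markers for 5 of 7 and 6 of 7. The part of these cells in the Igf1, Igfals, Igfbp3, Igfbp7 and Ptpn6 differences was not tested.

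**Figure D4:**
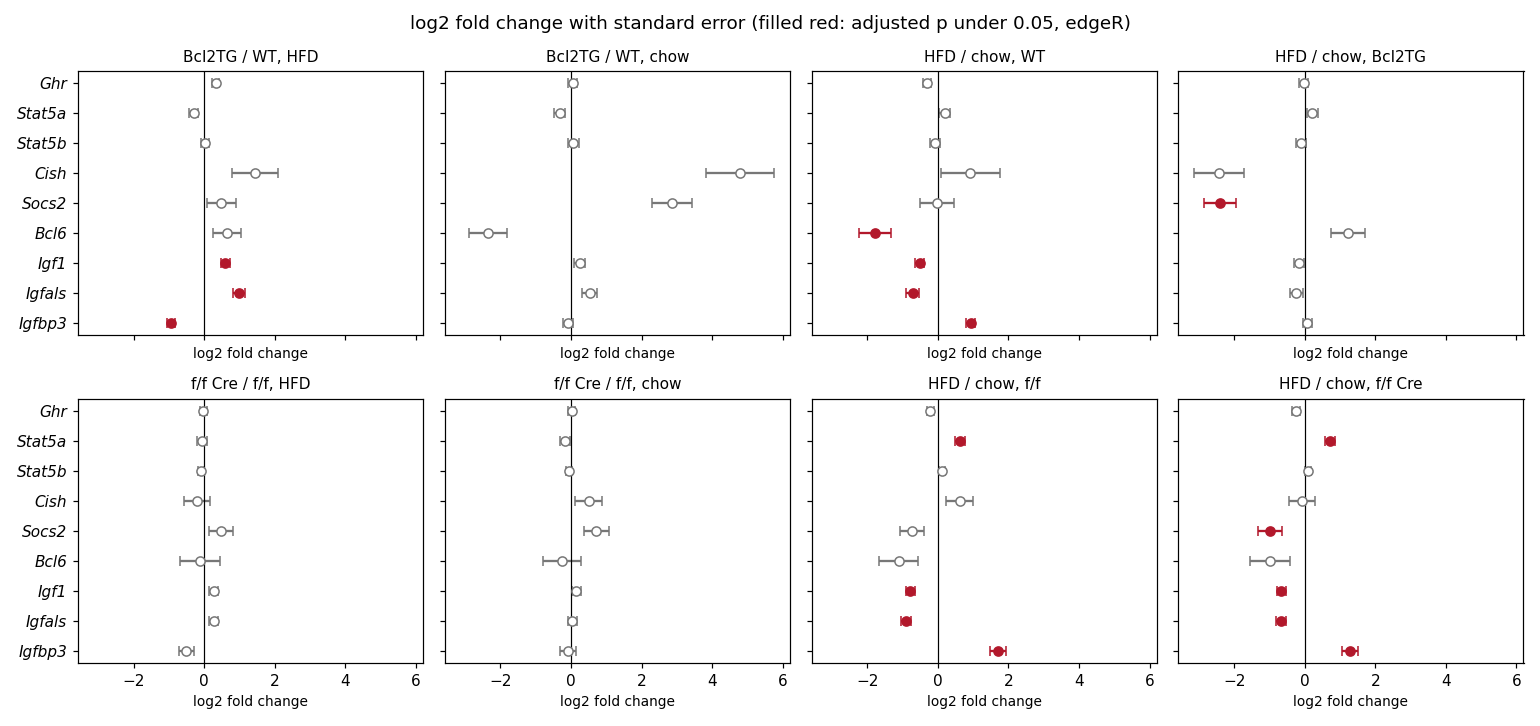
log2 fold change (horizontal axis) with its standard error for the 9 measured members in 8 comparisons, the Bcl2 experiment above and the S100a8 experiment below. Filled red points had an adjusted p under 0.05 in edgeR. Igf1 and Igfals lie left of 0 and Igfbp3 right of 0 for HFD against chow in WT, S100a8f/f and S100a8f/fCx3cr1Cre, and on the opposite sides for Bcl2TG against WT on HFD.

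Genes that read out the sex-dependent action of growth hormone gave a wider view of the same libraries. HFD was compared with chow for 15 male-biased genes. All 15 were called lower in WT, 14 in S100a8f/f, 14 in S100a8f/fCx3cr1Cre and 5 in Bcl2TG, and none was called higher. Of all genes, 6.98%, 13%, 12.8% and 1.26% were called lower in these comparisons, so calls were fewer in Bcl2TG in general. In Bcl2TG, 11 of the 15 had an unadjusted p under 0.05 in edgeR, beside 2242 of the 14436 genes. The median log2 fold changes of the 15 genes were -2.46, -2.60, -2.39 and -1.12. Cyp7b1 averaged 59.5 ± 21.9 CPM in HFD and 357 ± 58.9 CPM in chow WT (-2.58, adjusted p = 3.92e-05). Hsd3b5 averaged 2.18 ± 0.761 CPM in HFD and 179 ± 37.4 CPM in chow S100a8f/f (-6.36, adjusted p = 1.1e-07). Egfr, the epidermal growth factor receptor gene, averaged 60.0 ± 15.0 CPM in HFD and 450 ± 83.9 CPM in chow S100a8f/f (-2.91, adjusted p = 4.01e-07). Of the 10 measured female-biased genes, 8 were called higher and 1 lower in WT, and 8 and 1 in S100a8f/f. The counts were 9 and 0 in S100a8f/fCx3cr1Cre, and 5 and 1 in Bcl2TG. Of all genes, 8.4%, 14.5%, 16.1% and 1.32% were called higher in these comparisons. Cyp2b9, a female-specific cytochrome P450 gene with close relatives that can share reads, averaged 281 ± 30.1 CPM in HFD WT and 0.737 ± 0.567 CPM in chow WT. Abcd2, a peroxisomal transporter gene, averaged 64.3 ± 21.4 CPM and 8.03 ± 3.10 CPM in those groups (3.0, adjusted p = 4.15e-05). Whether the diet differences of these 2 lists depended on genotype was tested gene by gene through the interaction only. There 1 of 15 male-biased and 0 of 10 female-biased genes passed in the Bcl2 experiment in edgeR.

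**Figure D5:**
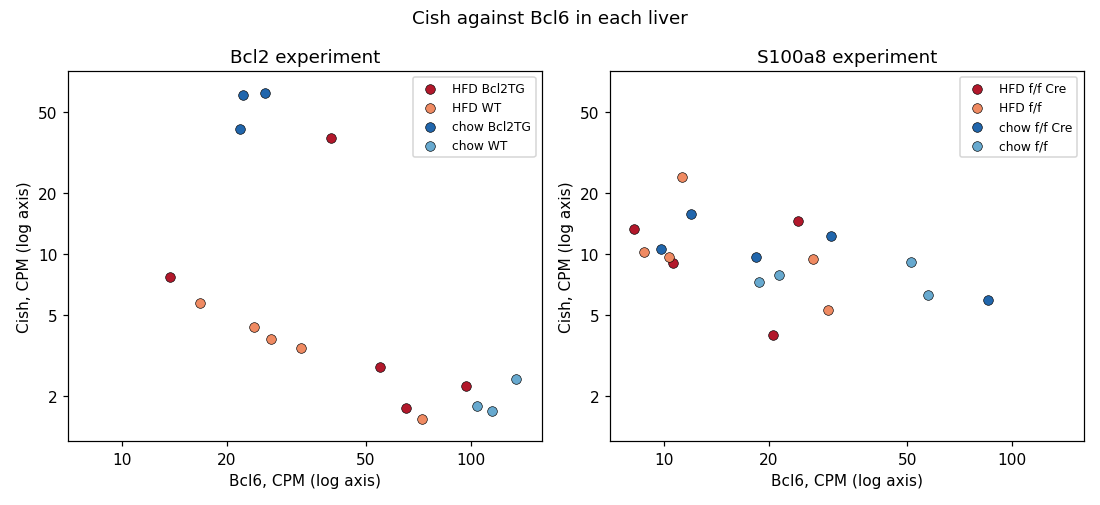
Cish against Bcl6, both in CPM on log axes, in each liver of the Bcl2 experiment (left) and the S100a8 experiment (right), coloured by group. In the Bcl2 experiment the 7 samples with the highest Bcl6 have 1.53 to 2.78 CPM of Cish, and the 3 chow Bcl2TG samples and sample 5 of HFD Bcl2TG lie above the others.

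Single livers within a group differed widely in the rapid targets. In HFD Bcl2TG, sample 3 combined 13.7 CPM of Bcl6 with 7.71 CPM of Cish, and sample 1 combined 97.1 CPM of Bcl6 with 2.23 CPM of Cish. Sample 5 of that group was the highest for Cish (37.4 CPM), Socs2 (29.0 CPM), Foxa2 (67 CPM) and Hhex (171 CPM). Its Bcl6 was 39.6 CPM, within the group's range of 13.7 to 97.1 CPM. In chow S100a8f/fCx3cr1Cre, sample 2 had the highest Bcl6 (85.3 CPM) and the lowest Socs2 (7.72 CPM), Cish (5.91 CPM) and Onecut1 (0.971 CPM) of the 5. In HFD S100a8f/f, sample 3 had the highest Cish (23.9 CPM), Socs2 (15.3 CPM) and Onecut1 (8.05 CPM). Its Bcl6 was 11.2 CPM, in a group range of 8.77 to 29.5 CPM. Across samples, Pearson's r of log2 CPM between Cish and Bcl6 after removing group means was -0.57 over the 16 samples of the Bcl2 experiment and -0.47 over the 18 samples of the S100a8 experiment, given as a description without a test. Between Socs2 and Bcl6 it was -0.14 and -0.58.

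Genes whose pattern lay nearest to a member were picked by the smaller of the 2 correlations of log2 CPM, over 16 and over 18 samples, which include the differences between groups. For Socs2 these were Ikzf4 (r of 0.848 and 0.808), Mad2l1bp (0.769 and 0.759) and Alkbh1 (0.756 and 0.761). For Igf1 they were Gm30262 (0.946 and 0.959), Hagh (0.941 and 0.926) and Cyp2c37 (0.915 and 0.938). These values describe likeness only.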

How the data were processed

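PolyA RNA of 34 livers was sequenced. Per the labels and methods, the authors ran FastQC, Trimmomatic, HISAT2, SAMtools and featureCounts on GRCm38 (versions not given in the sources used here), and deposited raw counts per gene in 1 table per experiment, of 14628 and 14030 lines. The lowest mean counts were 7.12 and 8.67, and no gene lay below these, so low counts appear to have been removed before deposit. Columns of the authors' own DESeq2 comparisons were not used. Repeated lines of an Ensembl ID held the same counts and were used once, which left 14436 and 13817 genes. Members, lists and tests were chosen with earlier results of these data known. The named genes were all members and, per list and comparison, up to 4 called genes with the smallest p. Bmal1 and Adipoq, and the values of Dbp, Onecut1, Foxa2 and Hhex in other groups, were added after their values were seen.

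Counts were scaled by TMM and tested in edgeR 4.0.16 (R 4.3.3, filterByExpr, quasi-likelihood, 4 group means per experiment, Benjamini-Hochberg over all genes of a table). The code was tested on simulated data. CPM means carry SD, and log2 CPM used a prior count of 2. The labels number the replicates without saying that each is a separate mouse, so p-values measure the spread between these samples. Alternatives were DESeq2 1.42.0, limma-voom (limma 3.58.1) with quality weights, RLE factors, other filters, only the compared groups, a replicate block, the clock mean or first component as a covariate, and leaving out each sample. Same-numbered samples had positive correlations of their deviations in every pair for diet in WT (0.134, 0.136 and 0.15). The same held for diet in S100a8f/f (0.193, 0.178, 0.0696 and 0.0465) and for genotype on chow in the Bcl2 experiment (0.102, 0.0492 and 0.0295). Exon lengths came from GENCODE M21 and promoters from RefSeq (GRCm38.p6). Strandedness is not given in the sources used here, so reads of overlapping antisense genes cannot be told apart.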

Additional observations from a re-analysis of the deposited data

Results flagged for a closer look

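In 54 member-by-group sets of 4 or 5 samples, 6 had a sample far from the others by Dixon's ratio, a rule that flags about 1 set in 20 by chance. Bcl6 was at 85.3 CPM in sample 2 of chow S100a8f/fCx3cr1Cre, where the next highest was 30.3 CPM, and at 72.3 CPM in sample 1 of HFD WT, where the next was 32.5 CPM. Cish was at 37.4 CPM in sample 5 of HFD Bcl2TG, above 7.71 CPM in the next, and at 23.9 CPM in sample 3 of HFD S100a8f/f, above 10.3 CPM. Socs2 was low in the same chow S100a8f/fCx3cr1Cre sample 2 as Bcl6 was high, at 7.72 CPM below 26.9 CPM. Stat5a was lowest in sample 4 of that group, at 8.23 CPM below 11.5 CPM. Igfbp3 was the only member called in the test of whether the diet difference depended on genotype, with an interaction of -0.87 on the log2 scale in the Bcl2 experiment (edgeR adjusted p = 0.0445, and 0.0943 with the replicate block).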

How the results depend on the processing

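All 18 member calls kept their direction under every alternative, 11 stayed called under all of them, and of the 72 member results that were not called, 28 had the other sign in at least 1 alternative, none of them with an adjusted p under 0.05 there. For Bcl2TG against WT on HFD, the count of called members was 3, and 5 in limma-voom. On chow it was 0, and 2 in DESeq2, 3 in limma-voom, 2 with the replicate block, 2 with the clock mean and 2 with only the groups compared. For diet in WT it was 4, and 1 with the clock mean, 0 with the clock component (chosen after seeing the data) and 2 with only the groups compared, where Igf1 (adjusted p = 0.0762) and Igfals (0.0622) were lost. Igfals was also lost without chow WT sample 1 (0.0515) or 3 (0.0725), and Igf1 without sample 2 (0.0553). For diet in Bcl2TG the count was 1, and 2 in limma-voom, 2 with the replicate block, 0 with the clock mean or component, and 0 to 2 when single samples were left out. For the Bcl2 interaction it was 1, and 2 in DESeq2, 3 in limma-voom, 0 with the replicate block or the clock component, and 0 to 2 when single samples were left out. With single samples left out, counts ran 3 to 4 for genotype on HFD, 0 to 0 for genotype on chow and 3 to 5 for diet in WT in the Bcl2 experiment, 4 to 5 for diet in either S100a8 genotype, and 0 to 0 for the 3 other S100a8 comparisons. The block changed no other count by over 1.5 times. RLE scaling, no filter and the 1 CPM filter left every count of called members as it was. Counts over all genes moved more: for genotype on chow in the Bcl2 experiment, 22 in edgeR, 110 in DESeq2 and 220 in limma-voom, for the Bcl2 interaction 70, 409 and 561, for diet in Bcl2TG 373, 784 and 2006, and for genotype on HFD 968, 1488 and 1560 in the Bcl2 experiment and 122, 184 and 288 in the S100a8 experiment. Over all genes, genotype on HFD in the Bcl2 experiment gave 398 with the block and 448 with the clock mean, and diet in WT gave 595 with the clock mean and 3 with the clock component. Diet in Bcl2TG gave 3 with the clock mean and 0 with the clock component. DESeq2 gave no adjusted p for Cish on chow. Groups of 3 limit the chow Bcl2 comparison, and the low counts of Cish in chow WT (37 to 71) limit its fold.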
